A study of Mus musculus with 2 samples.

Results

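The genes described here are Ptprc and Cd44, whose messenger RNAs are spliced in several forms in T cells, together with 6 genes of RNA-binding splice regulators (Hnrnpll, Hnrnpl, Srsf1, Srsf7, Celf2 and Mbnl1). They were matched by GENCODE M21 gene name, and these 8 were among 55536 annotated genes. Polyadenylated RNA was sequenced from regulatory T cells that had experienced inflammation, from a male mouse source of the strain Foxp3CreERT2 x Rosa26YFP at 6 months of age, labelled as primary cells of bone marrow hematopoietic origin. This strain carries a tamoxifen-inducible Cre recombinase at Foxp3, the gene of the transcription factor that defines regulatory T cells, and a YFP reporter in the Rosa26 locus. All libraries came from 1 biological replicate, sequenced as 2 technical libraries, and no control cells were analysed here. How the cells were sorted and how inflammation was induced is not given in the labels. Each value is therefore a level in 1 cell population, and each SD (n = 2) covers the technical libraries and not animals.

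CD45, the protein of Ptprc, is a receptor tyrosine phosphatase that sets the threshold of antigen receptor signalling. Its exons 4, 5 and 6, called A, B and C, encode a heavily glycosylated outer stretch. Resting T cells keep some of them, and activated and memory T cells skip them to make the short form CD45RO. CD44, the hyaluronan receptor and a marker of activated and memory T cells, has a run of variable exons that the standard form of lymphocytes lacks. HNRNPLL and HNRNPL bind CA-rich RNA and silence the CD45 exons, SRSF1 and SRSF7 are serine- and arginine-rich splice activators, CELF2 is a regulator that changes with T cell activation, and MBNL1 promotes adult splicing patterns.

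Ptprc (ENSMUSG00000026395.16) lies on the minus strand at chr1:138062861-138175708 of mm10. An exon was counted as variable if it lay inside the coding sequence of at least 1 protein-coding transcript and was skipped by another that spanned it. In Ptprc this rule gave exons 4, 5 and 6 and the next exon, 7, of 129, 147, 141 and 72 nt. Every one of these lengths is a multiple of 3, so skipping any of them keeps the reading frame. The exons are shown because their presence defines the forms compared below. They read as follows in the M21 transcripts, with CACA, a short CA-rich word, in capitals:
Exon A, chr1:138122456-138122584: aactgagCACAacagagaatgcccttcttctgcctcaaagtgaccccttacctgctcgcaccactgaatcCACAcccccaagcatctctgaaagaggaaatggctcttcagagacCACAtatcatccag
Exon B, chr1:138120020-138120166: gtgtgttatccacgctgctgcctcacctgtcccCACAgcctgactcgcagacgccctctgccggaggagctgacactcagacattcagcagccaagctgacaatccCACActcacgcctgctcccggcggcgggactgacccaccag
Exon C, chr1:138117754-138117894: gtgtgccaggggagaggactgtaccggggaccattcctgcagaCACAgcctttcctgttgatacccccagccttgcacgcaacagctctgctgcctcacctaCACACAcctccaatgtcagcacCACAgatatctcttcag
Exon 7, chr1:138116954-138117025: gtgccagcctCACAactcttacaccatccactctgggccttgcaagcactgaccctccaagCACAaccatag

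Read on the transcript strand with overlapping matches counted, CACA occurred 3 times in exon A, 2 times in B, 4 times in C and 2 times in exon 7. Among all internal exons of protein-coding transcripts with the same length, 46.5% of 1399, 51.2% of 1262, 49.9% of 1227 and 31.1% of 1282 held it at least once. A match is a description of the letters and not a binding site. Serine and threonine, the residues that carry O-linked sugars, made up 54 of the 163 codons of these 4 exons (33.1%). They made up 12.8% of the other 1130 codons of the full-length form.

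The splice junctions that tell the Ptprc forms apart are shown next, with 15 bases of the exon before the junction in lower case and 15 bases of the exon after it in capitals. All start from the same constant exon, which ends at position 138126303.
To exon 7, in Ptprc-203: ctacacccagtgatgGTGCCAGCCTCACAA
To constant exon 8, in Ptprc-204: ctacacccagtgatgCTACCACAACGAAGC
To exon B, in Ptprc-213: ctacacccagtgatgGTGTGTTATCCACGC
To exon A, in Ptprc-206, Ptprc-207 and Ptprc-212: ctacacccagtgatgAACTGAGCACAACAG

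Most protein-coding Ptprc RNA was assigned to forms that skip A, B and C. Ptprc-203, which skips A, B and C but keeps exon 7, had 398.6 and 372.9 TPM (a level scaled for transcript length and library size) in technical replicates 1 and 2. Ptprc-204, which skips all 4 variable exons, had 144.1 and 159.1 TPM. Together these forms held 81.2% and 77.7% of the protein-coding TPM (79.5% ± 2.48, SD, n = 2), and 96.8% and 95.8% of the protein-coding estimated counts. Exon 7 was kept in 77.6% and 76.0% of the protein-coding TPM (76.8% ± 1.14). In both libraries Ptprc-203 was above Ptprc-204, and the values of the 2 forms did not overlap. In bulk RNA such as this, fewer cells of a type and less RNA per cell cannot be told apart.

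The only full-length form with A, B, C and exon 7, Ptprc-207, had 0.77 and 2.08 TPM, or 48.02 and 114.5 estimated counts. Its share of the protein-coding TPM was 0.210% ± 0.133. The authors' posterior mean count of this transcript was 93.2 with a posterior SD of 56.7 in technical replicate 1, and 197.2 with a posterior SD of 123.8 in technical replicate 2. The SD was above 50% of the mean in each library, so the assignment of reads did not fix the level of the long form closely. The lower credibility bound of its TPM was 0.042 in technical replicate 1 and 0.394 in technical replicate 2. No full-length protein-coding form keeps only some of A, B and C, so reads of such mRNA could be assigned to Ptprc-207. B cells carry the long form of CD45 (B220). Of 8 B cell markers 2 were detected (Cd79b and Cd22), where detected means a gene TPM of 1 or above in each library. All 8 markers summed to 49.96 and 38.8 TPM, of which Cd79b, a subunit of the B cell receptor, gave 36.6 and 29.7 TPM. The defining marker genes Ms4a1 (0.70 and 0.33 TPM) and Pax5 (0.23 and 0.29 TPM) were near 0. The part of B cell RNA in the Ptprc-207 level was not tested.

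Inclusion of exon B alone rested on 1 short annotated fragment. Ptprc-213 is 702 nt long, is annotated as incomplete, and joins the upstream constant exon to B and B to exon 7. It had 966 and 1041 estimated counts and 119.1 and 145.2 TPM. Its share of the protein-coding TPM was 17.8% and 21.2% (19.5% ± 2.39), while its share of the protein-coding estimated counts was 3.00% and 3.69%. TPM divides counts by length, so the share of this short fragment is larger by TPM than by counts. None of the annotated protein-coding transcripts joins B alone to the 3′ end of the gene. Full-length mRNA that keeps only B, the CD45RB form, therefore had no transcript of its own to which its other reads could be assigned. Such reads could only go to other Ptprc transcripts. The count share with B only can thus be too low, and that without A, B and C too high. The size of this effect was not tested. The other fragment, Ptprc-212, keeps A and part of C and had 5.52 and 5.16 TPM.

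**Figure D1:**
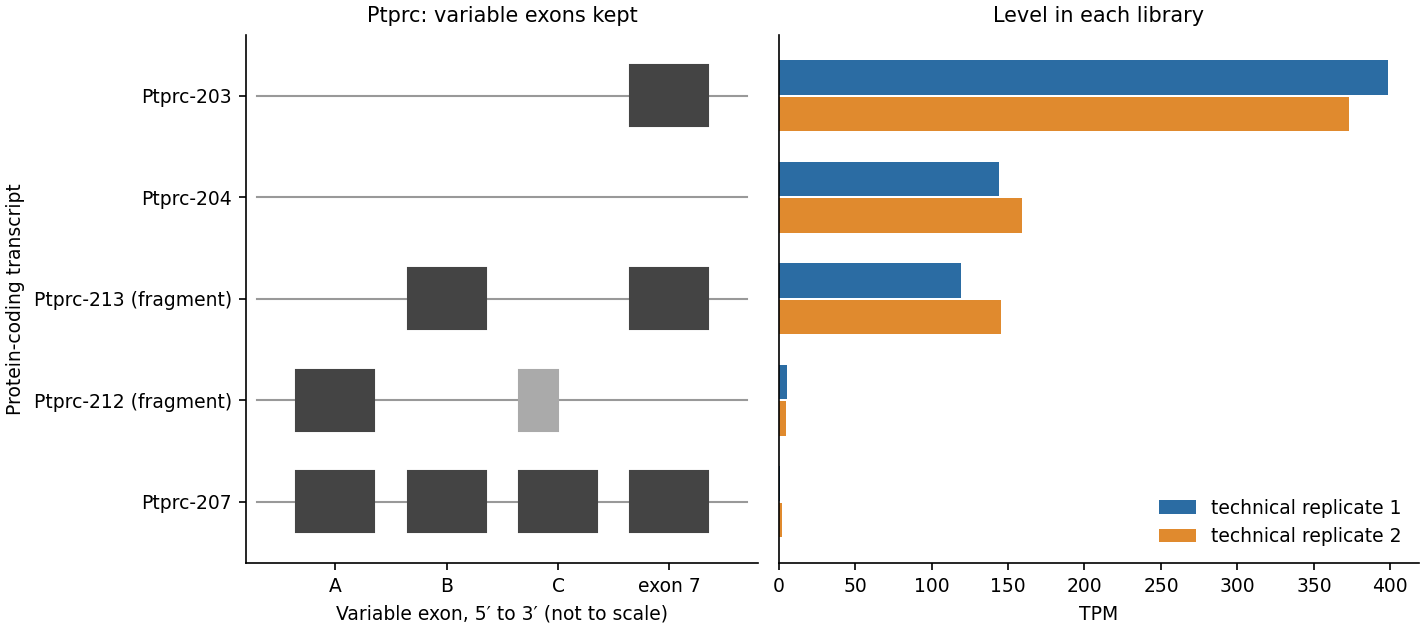
Variable exons kept (left; dark box, kept; light box, part kept; not to scale) and TPM in each technical library (right) for the 5 protein-coding Ptprc transcripts. Ptprc-203, which keeps only exon 7, had 398.6 and 372.9 TPM, and Ptprc-207, which keeps all 4 exons, had 0.77 and 2.08 TPM.

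Retained-intron transcripts held 33.3% and 31.1% of the Ptprc TPM and 28.0% and 27.5% of its estimated counts. Of these, the single-exon Ptprc-208 had 93.1 and 91.5 TPM and the 26-exon Ptprc-201 had 61.1 and 60.9 TPM. The 364-nt Ptprc-205 had 64.2 and 47.9 TPM and was the only one of them that moved by more than 10 TPM between the libraries. Ptprc-202 (37.6 and 36.9 TPM), Ptprc-211 (28.0 and 24.8 TPM) and Ptprc-209 (15.3 and 10.8 TPM) also passed 1% of the gene's TPM. Ptprc-210 (34.9 and 35.7 TPM) is an unspliced stretch that holds sequence of both B and C, so reads inside B and C could go to it as well as to the coding forms. A130071D04Rik, a gene model inside Ptprc on the same strand with 50.2 and 49.9 TPM, shares no exon base with it.

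Cd44 (ENSMUSG00000005087.17) lies on the minus strand at chr2:102811141-102901665. The same rule gave 10 variable exons, v1 to v10, of 90 to 207 nt, each a multiple of 3. Serine and threonine made up 113 of their 415 codons (27.2%) and 18.6% of the other 365 codons. The junctions that define the measured forms are shown with the same layout, and the first 3 start from the constant exon that ends at position 102853015.
To the downstream constant exon, in Cd44-203: gcaccttggccaccaGAGATCGAGACTCAT
To v5, in Cd44-207: gcaccttggccaccaATATAGACAGAATCA
To v1, in Cd44-201: gcaccttggccaccaTTGCCTCAACTGTGC
From v6 to v8, in Cd44-207: cagaagggacaactgATACAGACTCCAGTC

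The larger part of the Cd44 TPM was assigned to a form with variable exons. Cd44-207, which keeps v5, v6, v8, v9 and v10, had 42.9 and 45.3 TPM, or 2664 and 2484 estimated counts. Cd44-203, the standard form without variable exons, had 19.8 and 21.5 TPM, or 690 and 659 estimated counts. The standard form thus held 30.9% and 31.5% of the protein-coding TPM (31.2% ± 0.441) and 19.96% and 20.4% of the protein-coding estimated counts. Cd44-201, which keeps all 10 variable exons, had 1.49 and 1.37 TPM. The other 5 protein-coding forms (Cd44-202, Cd44-204, Cd44-205, Cd44-206 and Cd44-208) were listed at 0 counts in both libraries. The authors' posterior mean TPM gave these 5 together 1.23% and 1.16% of the protein-coding level. A retained-intron transcript, Cd44-209, had 3.5 and 3.32 TPM.

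Most of the sequence that sets Cd44-207 apart from Cd44-203 lies outside its variable exons. The reads that fell in each part were not counted. In windows of 50 nt, the length that fits the deposited effective lengths, Cd44-207 had 2246 windows absent from Cd44-203. Of these, 1406 touched the last 1406 nt of the 3′ untranslated region, beyond the end of Cd44-203, and 685 touched a variable exon. The long end is annotated in 2 transcripts, Cd44-201 and Cd44-207, both with variable exons, and in no form without them. An mRNA with the standard coding sequence and the long end had no annotated transcript. From the deposited estimates, use of the long 3′ end and inclusion of v5, v6 and v8 to v10 cannot be told apart. Only 48 windows of Cd44-203 occurred in no other Cd44 transcript, and 134 windows of Cd44-207. The epithelial splice regulator genes Esrp1 and Esrp2, known for promoting Cd44 variable exons, were at 0.03 and 0 TPM and at 0 and 0.07 TPM. Another splicing factor gene, Khdrbs1, had 29.7 and 30.9 TPM. Whether any of these factors acts on Cd44 splicing in these cells was not tested. Of the epithelial marker genes, Epcam was detected at 1.42 and 1.34 TPM, while Krt8 had 0.17 and 0.05 TPM and Krt18 had 0.93 and 0.07 TPM. Krt18, with 16 and 1 counts, also differed between the libraries (exact binomial test, adjusted p = 0.00453).

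**Figure D2:**
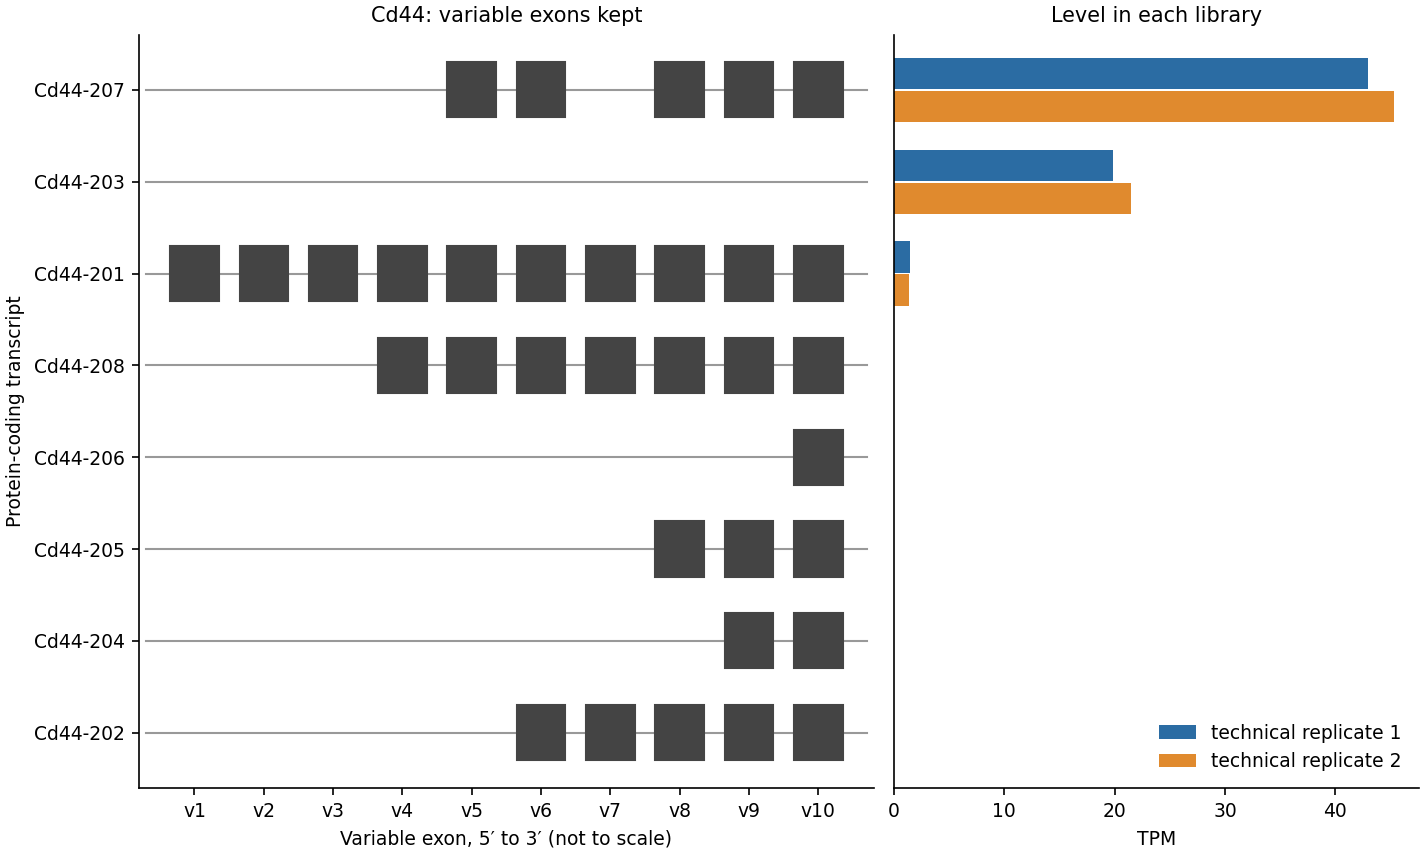
Variable exons kept (left; not to scale) and TPM in each technical library (right) for the 8 protein-coding Cd44 transcripts. Cd44-207 had 42.9 and 45.3 TPM, Cd44-203 had 19.8 and 21.5 TPM, Cd44-201 had 1.49 and 1.37 TPM, and the other 5 were listed at 0.

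**Figure D3:**
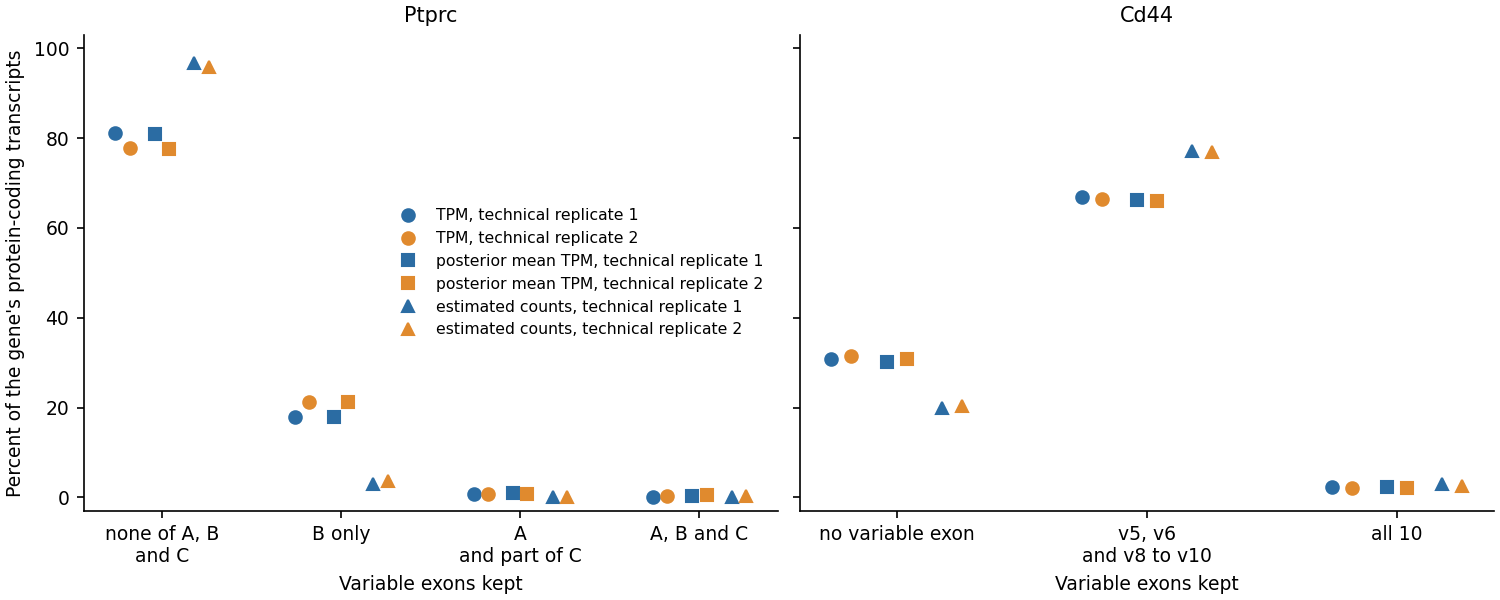
Percent of each gene's protein-coding transcripts by the variable exons they keep, on the scales of TPM, the authors' posterior mean TPM and estimated counts. Colours are the technical libraries. The share of the Ptprc form with B only was 17.8% and 21.2% by TPM and 3.00% and 3.69% by estimated counts.

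The gene levels of the 8 genes spanned 26.1 to 997.6 TPM. Ptprc was highest at 1002 and 993 TPM (997.6 ± 6.72), followed by Mbnl1 at 742.2 and 696.9 TPM (719.5 ± 32.0). Srsf7 stood at 401.2 and 379.2 TPM (390.2 ± 15.5) and Hnrnpl at 287.6 and 267.6 TPM (277.6 ± 14.1). Celf2 followed at 161.4 and 158.2 TPM (159.8 ± 2.31). Cd44 had 67.8 and 71.4 TPM (69.6 ± 2.61). The lowest levels were those of Srsf1 at 39.1 and 37.0 TPM (38.0 ± 1.44) and Hnrnpll at 25.6 and 26.7 TPM (26.1 ± 0.799). No pair of neighbours in this order overlapped between the libraries. The median over the 13511 genes detected in both libraries was 13.4 TPM, and all 8 genes were above it.

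The order changed when the TPM of protein-coding transcripts alone was used. Mbnl1 (503.6 ± 18.4 TPM), Srsf7 (172.1 ± 5.64 TPM) and Celf2 (130.7 ± 3.25 TPM) kept their order. Hnrnpl ranked after Cd44, at 20.6 and 20.04 TPM (20.3 ± 0.368). On this scale it overlapped Srsf1, at 18.4 and 21.7 TPM (20.04 ± 2.28), so these 2 did not differ beyond their spread. Hnrnpll had 11.7 and 13.1 TPM (12.4 ± 0.962). The ratio of Hnrnpl to its paralog Hnrnpll was 11.3 and 10.03 by gene TPM, but 1.76 and 1.54 by protein-coding TPM. By counts, which are not scaled for length, it was 3.19 and 2.87 in the larger gene table and 1.81 and 1.49 in the smaller one.

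Hnrnpll (ENSMUSG00000024095.15, chr17:80029487-80062334, minus strand) divided its RNA between 1 coding form and several with introns. Hnrnpll-205, a complete coding transcript, held 45.7% and 44.7% of the gene's TPM. The retained-intron transcripts Hnrnpll-206 (22.8% and 19.6%) and Hnrnpll-204 (10.2% and 7.47%) were the others that reached 10% in a library. In all, retained-intron transcripts held 49.9% and 43.9% of Hnrnpll TPM, and the 1 transcript annotated for nonsense-mediated decay, the pathway that destroys mRNAs with an early stop codon, held 4.34% and 7.20%. The second coding form, Hnrnpll-201, was listed at 0 counts in technical replicate 1 and 38.0 in technical replicate 2.

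Hnrnpl (ENSMUSG00000015165.16, chr7:28808541-28822266, plus strand) had the smallest coding share of the 8 genes. Hnrnpl-210, a 672-nt retained-intron transcript, held 79.6% and 78.5% of the TPM and 59.6% and 57.9% of the estimated counts (1772 and 1437 counts). It keeps a 118-nt intron, chr7:28821274-28821391, near the 3′ end. Of its 623 windows of 50 nt, 456 also occur in the main coding transcript Hnrnpl-201, and 167 do not. Hnrnpl-201 had 503 and 433 estimated counts and 19.3 and 18.8 TPM. Protein-coding transcripts held 7.15% and 7.49% of the TPM and 18.1% and 18.7% of the estimated counts.

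Hnrnpl also carries an annotated 70-nt exon, chr7:28817335-28817404, whose length is not a multiple of 3 and which brings in the stop codon of the decay transcript Hnrnpl-213. It is shown because exons of this kind are a known route by which such genes limit their own mRNA, with the stop codon in capitals:
Hnrnpl 70-nt exon: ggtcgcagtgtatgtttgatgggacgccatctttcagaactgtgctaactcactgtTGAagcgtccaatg

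The decay transcript Hnrnpl-213 was listed at 0 counts in both libraries, with posterior means of 24.5 and 32.1 counts and posterior SDs of 22.0 and 24.3. The other transcript with this exon, the retained-intron Hnrnpl-207, had 114.0 and 96.1 counts. The exon was thus covered only through estimates for a short, partly unspliced transcript.

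Srsf1 (ENSMUSG00000018379.17, chr11:88047373-88053755, plus strand) had the protein-coding share of TPM that differed most between the libraries among the 8 genes. Srsf1-204, an 896-nt transcript annotated for decay, held 42.7% and 39.0% of the TPM, but 14.8% and 12.01% of the estimated counts. Srsf1-205, a 5362-nt coding transcript, held 26.8% and 29.5% of the TPM and 58.2% and 56.8% of the counts. The coding Srsf1-201 held 20.4% and 29.0% of the TPM. Protein-coding transcripts held 47.2% and 58.5% of the TPM (52.8% ± 7.99), and 82.4% and 87.4% of the estimated counts. These shares rest on few reads, since Srsf1-201 had 286.8 and 341.8 estimated counts and Srsf1-204 had 175.5 and 134.4.

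Srsf7 (ENSMUSG00000024097.11, chr17:80200080-80207307, minus strand) was rich in RNA with an intron or an extra exon at 1 place in the gene. Srsf7-207, which keeps an 874-nt intron at chr17:80204388-80205261, led with 35.4% and 31.1% of the TPM. Inside that intron lies a 460-nt exon, chr17:80204622-80205081, of the decay transcript Srsf7-203, which held 10.4% and 9.18%. Together with the retained-intron Srsf7-206, these transcripts took 60.4% and 59.0% of the Srsf7 counts and 50.8% and 48.4% of its TPM. Reads inside the 460-nt exon are shared by all 3, and in part by Srsf7-204, so the split between them is an estimate. The coding forms that reached 10% were Srsf7-208 (16.8% and 23.6%), Srsf7-201 (12.8% and 11.3%) and Srsf7-205 (14.3% and 9.49%).

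Celf2 (ENSMUSG00000002107.18, chr2:6539694-7509563, minus strand) was mostly coding. Of its 28 transcripts, Celf2-206 held 45.2% and 42.7% of the TPM and Celf2-224 held 21.7% and 23.8%. Protein-coding transcripts held 82.4% and 81.2% of the TPM (81.8% ± 0.847). By gene TPM, Mbnl1 stood 4.60 and 4.41 times as high as Celf2.

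Mbnl1 (ENSMUSG00000027763.13, chr3:60472830-60629750, plus strand) was spread over several coding forms that differ in 2 short exons. One is 54 nt long and is known for directing the protein to the nucleus, and the other is 36 nt long.
Mbnl1 54-nt exon, chr3:60614683-60614736: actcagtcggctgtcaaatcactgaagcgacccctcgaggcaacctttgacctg
Mbnl1 36-nt exon, chr3:60621423-60621458: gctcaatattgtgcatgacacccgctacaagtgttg

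Among the 7 complete protein-coding Mbnl1 transcripts, the 54-nt exon was kept in 40.7% and 44.1% of their TPM (42.4% ± 2.44), and the 36-nt exon in 59.3% and 55.8% (57.6% ± 2.49). By estimated counts the shares were 44.2% and 47.8% for the 54-nt exon and 55.8% and 52.2% for the 36-nt exon. None of these transcripts is annotated with both exons, so mRNA that keeps both could not be seen in these estimates. Mbnl1-214, with the 54-nt exon, had 173.3 and 179.8 TPM. Mbnl1-203, with the 36-nt exon, had 182.9 and 166.2 TPM, and the order of the 2 differed between the libraries. The retained-intron Mbnl1-225 had 95.2 and 83.8 TPM.

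For scale, 9479 detected protein-coding genes with at least 2 annotated transcripts had a median of 80.9% of their TPM in protein-coding transcripts and 5.48% in retained-intron transcripts. A retained-intron share of 20% or more was found in 27.2% of them, and a decay share of 20% or more in 8.83%. Ptprc, Hnrnpll, Hnrnpl, Srsf7 and Mbnl1 were above 20% for retained introns in both libraries, and Cd44, Srsf1 and Celf2 were below it. Only Srsf1 of the 8 genes was above 20% for decay transcripts. Of the 6 regulators 3 (Hnrnpll, Hnrnpl and Srsf7) had a mean protein-coding share below 50% of TPM.

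**Figure D4:**
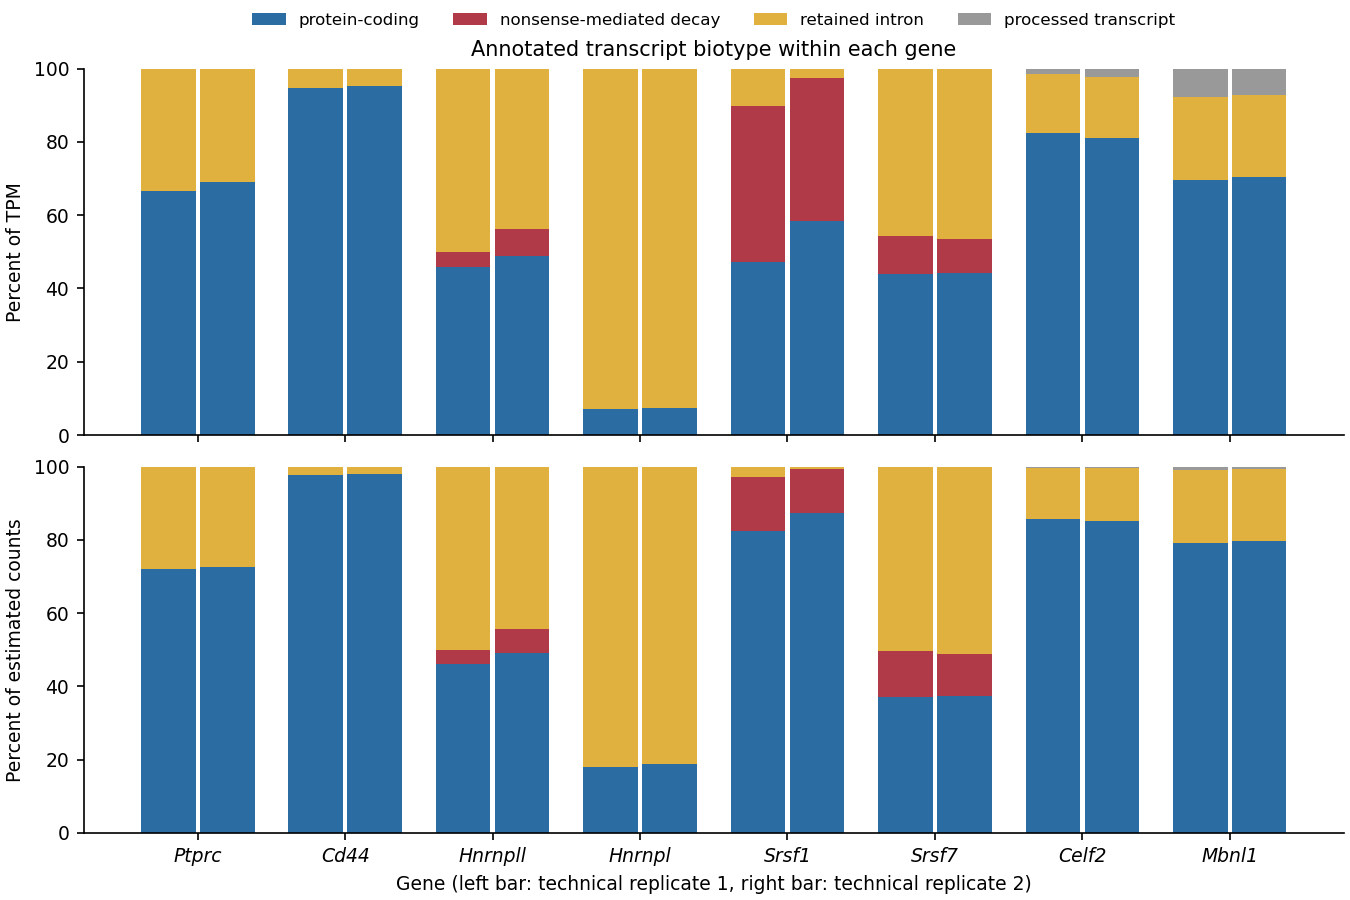
Share of each gene's TPM (top) and estimated counts (bottom) by the annotated biotype of its transcripts, with the left bar for technical replicate 1 and the right bar for technical replicate 2. Retained-intron transcripts held 92.9% and 92.5% of the Hnrnpl TPM, and decay transcripts 42.7% and 39.0% of the Srsf1 TPM but 14.8% and 12.01% of its counts.

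The only comparison the labels allow is that of the technical libraries, and it shows how far their values differ. Errors that both libraries share, such as those from the annotation, stay unseen in it. A two-sided exact binomial test on rounded estimated counts called 3 of the 8 genes at an adjusted p under 0.05 over all genes, against 3328 of the 17334 genes tested (19.2%). Ptprc had 44783 and 38907 counts, a log2 ratio of -0.03 (exact binomial test, adjusted p = 0.0447). Srsf7 had 7909 and 6424 counts, a log2 ratio of -0.12 (exact binomial test, adjusted p = 1.64e-05). Mbnl1 had 32401 and 27273 counts, a log2 ratio of -0.07 (exact binomial test, adjusted p = 1.4e-07). In the smaller gene table, whose annotation is older, the same ratios were 0.11, 0.05 and 0.04, so none of these directions held in both tables. There the Ptprc ratio alone was called, in the opposite direction (exact binomial test, adjusted p = 0.00152). All these differences were below 1.1-fold. Cd44, Hnrnpll, Hnrnpl, Srsf1 and Celf2 were not called.

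Among transcripts, the same test called 33 of the 77 tested transcripts of the 8 genes, 16 higher and 17 lower in technical replicate 2, against 35.4% of all transcripts tested. All 7 tested Srsf7 transcripts and none of the 4 tested Cd44 transcripts were called. Within Ptprc the forms moved in opposite directions. Ptprc-203 fell by 0.10 on the log2 scale (exact binomial test, adjusted p = 3.48e-11), and Ptprc-204 rose by 0.14 (exact binomial test, adjusted p = 9.66e-09). Ptprc-207 rose by 1.43 from 48 to 115 counts (exact binomial test, adjusted p = 1.79e-08), and Ptprc-213 rose by 0.28 (exact binomial test, adjusted p = 8.25e-05). The test holds the sampling of reads but not the error of dividing reads between transcripts. In technical replicate 1 the posterior SDs were 759 counts for Ptprc-203 and 750 for Ptprc-204, beside posterior means of 22684 and 8488. Relative to the mean, that error was larger for Ptprc-207. Its posterior SD was 56.7 beside a mean of 93.2 in technical replicate 1, and 123.8 beside 197.2 in technical replicate 2. The size of its rise is therefore uncertain.

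**Figure D5:**
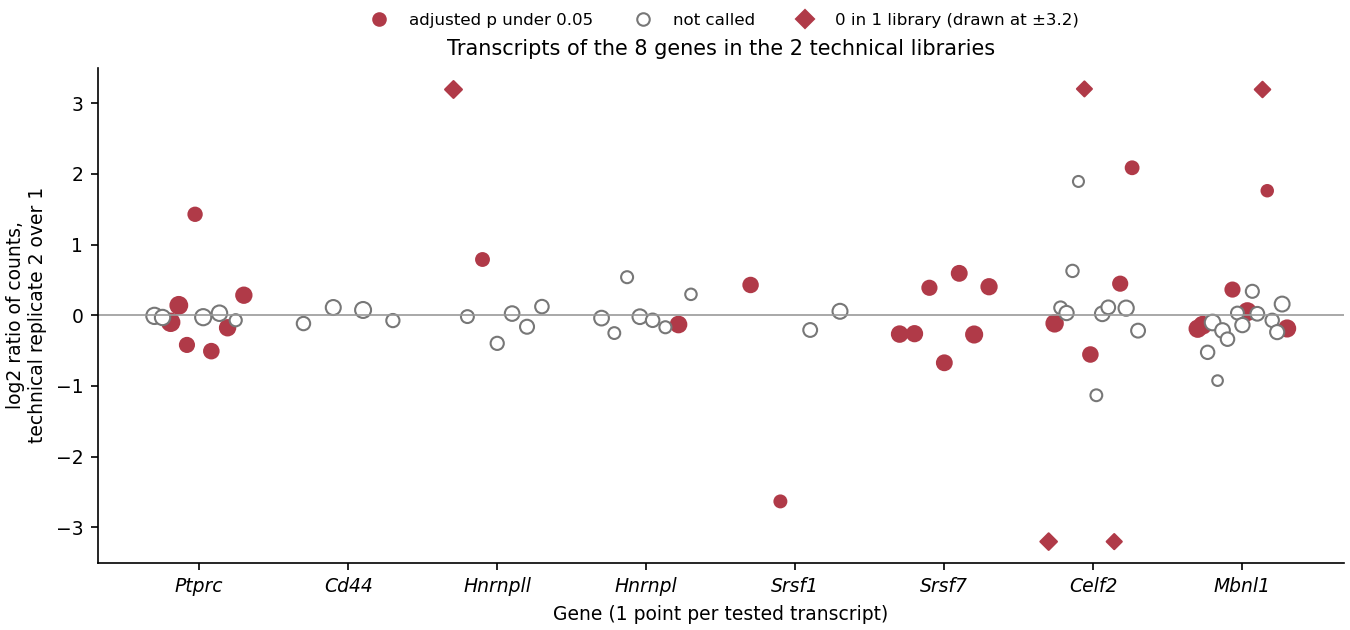
Log2 ratio of counts in technical replicate 2 over technical replicate 1 for the 77 tested transcripts of the 8 genes, 1 point each, with larger points for more counts. Filled points passed an adjusted p of 0.05 and diamonds mark transcripts listed at 0 in 1 library, drawn at a fixed height. Cd44 held no called transcript and Srsf7 had 7 of 7.

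The wider splicing machinery was examined in lists that hold 93 splice factor genes, the 6 regulators included, of which 78 were detected. Over all protein-coding genes, 10288 of 22028 (46.7%) were detected. All 13 SR protein and Tra2 genes were detected (median 116.4 TPM), led by Srsf5 (431.2 ± 24.6 TPM), Srsf7 and Tra2b (320.3 ± 22.6 TPM). Every one of the 28 hnRNP and PTB genes was detected as well (median 75.7 TPM), led by Hnrnpk (1656 ± 5.34 TPM), Hnrnpa2b1 (784.1 ± 2.59 TPM) and Hnrnpf (732.5 ± 26.5 TPM). Of the 14 genes of CD45 exon silencing cofactors and their kinases, which include kinases that phosphorylate SR proteins, all 14 were detected (median 65.8 TPM). They were led by the RNA helicase gene Ddx5 (417.1 ± 15.6 TPM), the SR protein kinase gene Clk1 (369.2 ± 2.47 TPM) and Nono (242.0 ± 19.1 TPM). Sfpq, which encodes PSF, a CD45 exon silencer, had 45.4 ± 3.69 TPM. All 9 genes in a list of core splicing machinery were detected, with Sf3b1 (304.2 ± 1.85 TPM), Snrnp70 (101.2 ± 4.74 TPM) and Snrpc (65.2 ± 4.37 TPM) highest.

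Detection was less complete in the 2 remaining lists, of 9 and 20 genes. In the CELF and muscleblind families 6 of 9 genes were detected, with Celf1 (45.5 ± 4.39 TPM) next after Mbnl1 and Celf2, while Celf4, Celf5 and Celf6 were below 1 TPM in at least 1 library. Of the 20 genes in a mixed list of other splicing factors 8 were detected, against 46.7% of all protein-coding genes. Rbm39 (570.5 ± 20.6 TPM), Rbm5 (296.7 ± 0.813 TPM) and Tia1 (76.7 ± 3.03 TPM) were highest. Below 1 TPM were Esrp1 and Esrp2, the neuronal and muscle factor genes Rbfox1, Rbfox2, Rbfox3, Nova1, Nova2 and Elavl2, and Khdrbs2, Khdrbs3, Rbm24 and Rbm47. Rbm24, with 19 and 3 counts, and Rbm47, with 27 and 6 counts, were the list members that passed the test at more than 2-fold (exact binomial test, adjusted p = 0.0156 and 0.00749). Over the 93 genes, 29 of 83 tested were called (34.9%), 9 higher and 20 lower in technical replicate 2, against 19.2% of all genes tested, of which 1632 were higher and 1696 lower. The 93 genes had a median of 45.4 TPM, against 13.4 TPM over all detected genes, and higher counts make small differences easier to call. The part of count depth in these shares was not tested. In the SR protein list 8 of 13 were called, 2 higher and 6 lower, against the same 19.2% of all genes. In the smaller gene table the lowest adjusted p of these 13 genes (exact binomial test) was 0.441, for Srsf1, so none of the 8 calls was made there. Counts were fewer there, with 39 and 43 for Srsf2 against 4914 and 3973, so small differences were harder to call.

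Genes of partner proteins were measured too. Lck, the kinase that CD45 activates, had 1228 ± 83.3 TPM. Ptprcap, which encodes a CD45-associated protein, had 638.0 ± 57.2 TPM, and Msn, encoding moesin, which links CD44 to the cytoskeleton, had 569.7 ± 13.5 TPM. Of the 17 partner genes 12 were detected, against 46.7% of all protein-coding genes. The hyaluronan synthase genes Has1 (0.09 and 0.09 TPM), Has2 (0 and 0 TPM) and Has3 (0.37 and 0.16 TPM), the hyaluronidase gene Hyal3 and the protease gene Mmp14 were below 1 TPM in at least 1 library.

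The 2 technical libraries held 15386113 and 13604480 counts, at which 0 counts allow up to 0.195 and 0.221 CPM (counts scaled to the library total), for counting error only. All 10 T cell and regulatory T cell markers were detected, among them Cd4 (237.7 and 247.1 TPM) and Foxp3 (22.05 and 17.9 TPM), while 0 of 5 NK cell, 1 of 10 myeloid and 1 of 7 stromal and epithelial markers were. The CD8 T cell marker genes Cd8a and Cd8b1 summed to 13.96 and 13.4 TPM.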

How the data were processed

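Polyadenylated RNA of 1 biological replicate was measured in 2 technical libraries. The authors deposited, per gene, estimated counts, TPM and FPKM, and, per transcript, the first pair with IsoPct, a transcript's percent within its gene, for mm10 and GENCODE M21, per the file headers and the text deposited with each library. Posterior SDs of the count and credibility bounds of TPM, deposited by the authors beside the posterior means and recorded as signal values, surround the posterior mean and not the TPM printed in the report. The authors also deposited a smaller gene table of whole-number counts with GENCODE M4 (3581589 and 3271045 counts). The aligner, the quantifier and the strand setting are not given in the sources used here. Without the strand setting, reads from genes on opposite strands that overlap cannot be told apart, and estimated counts of transcripts that share sequence are uncertain.

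Estimated counts were rounded to whole numbers. Features with at least 10 counts summed entered a two-sided exact binomial test of technical replicate 2 against 1 (SciPy 1.17.1), with the expected share from TMM-scaled libraries by edgeR 4.0.16 and p-values adjusted over all features by Benjamini-Hochberg. The test was tested on simulated counts with 2-fold changes and read sampling as the only error. That run cannot show how the test behaves with other errors, such as the division of reads between transcripts. P-values set the difference between these 2 technical libraries against the sampling of reads alone, and measure no spread between libraries or animals. Entries without a gene name (0.174% and 0.158% of counts) were left out. Exons, junctions and windows were read from the GENCODE M21 transcripts. DESeq2 1.42.0 gave size factors for an alternative. The named genes were the 8 members, Ptprc and Cd44 transcripts of at least 1% of the gene's TPM, regulator transcripts of at least 10%, and of each list the 3 highest, those below 1 TPM and those called at more than 2-fold. Markers, Sfpq, Khdrbs1 and transcripts named for their exons or their 0 counts are outside this rule. Members and lists were chosen with earlier results of these data known. Likeness of pattern to other genes was not computed, since 1 group has no pattern across conditions.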

Additional observations from a re-analysis of the deposited data

How the results depend on the processing

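In all, 37 results were recomputed with other scalings, minimum counts, denominators, gene tables or libraries, giving 173 values. Of these, 139 stayed the same by the spread between libraries or by the side of the test's threshold. For the shares, the 139 include every value with 1 library left out, which by this rule could not count as moved. With 2 libraries, each value always lies within 1 SD of their mean. By estimated counts in place of TPM, the Ptprc forms without A, B and C held 96.3%, the form with B only 3.34% and the standard Cd44 form 20.2% of the protein-coding level. With all transcripts of the gene in the denominator these became 53.9%, 13.3% and 29.7%. Posterior mean TPM gave the standard Cd44 form 30.5%. Mbnl1 held 44.7% of the summed level of the 6 regulators by TPM and 38.0% by CPM of the smaller gene table, whose values are not scaled for length. The smaller table called 726 genes between the libraries in place of 3328. Its log2 ratios had the opposite sign for Ptprc (0.11), Srsf7 (0.054), Mbnl1 (0.041), Celf2 (0.037) and Hnrnpl (0.022); the cause was not tested. The Ptprc call was lost with total counts as library size (adjusted p = 0.0567 in the exact binomial test) and with no minimum count (0.0727), and its other alternatives ranged from 0.00152 to 0.046. Celf2 was called with DESeq2 size factors (adjusted p = 0.0192). Leaving out a library moved the Ptprc share without A, B and C between 77.7% and 81.2%, the share with B only between 17.8% and 21.2%, the standard Cd44 share between 30.9% and 31.5%, and the Mbnl1 share between 44.5% and 44.8%. It left 78 to 79 of the 93 splice factor genes detected. The number of regulators with a protein-coding share below 50% was 3, and 4 without technical replicate 2, where Srsf1 joined them. No paired analysis was possible because the labels give 1 group.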

Other observations

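The gene tables disagreed on the share of reads in these genes. Over genes with at least 100 counts, a gene's share of the matched counts in the smaller table was a median of 1.53 and 1.51 times that in the larger table. For the 8 genes it was lower, between 0.250 and 0.269 for Mbnl1 and between 0.965 and 1.13 for Hnrnpll. The other 6 lay between 0.315 and 0.752, with Srsf1 at 0.315 and 0.363 and Ptprc at 0.618 and 0.673. The ratio of Mbnl1 to Celf2 was 4.19 and 4.15 by estimated counts and 1.65 and 1.66 by the counts of the smaller table, so it moved by more than 1.5 times with the table in both libraries. These shares come from different annotations and different counting, which cannot be told apart here.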
